A study of Mus musculus with 30 samples.

Results

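The response of 2 mouse blood progenitor lines to the same activated transcription factor was compared gene by gene. The lines were HPC7 and HPCLSK, both labelled as haematopoietic stem or progenitor cells, and the factor was STAT3Y640F, a form of STAT3 with a changed residue in its SH2 domain. For each gene the log2 change from empty vector to STAT3Y640F in HPC7 was subtracted from the same change in HPCLSK. This value is called the line difference below, and it is positive where HPCLSK moved further up or less far down than HPC7. The comparison used 12 of the 30 samples of the series, 3 messenger RNA libraries in each of 4 groups, and 13891 of 50686 listed genes passed the filter on low counts.

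The 4 groups were HPC7 with empty vector, HPC7 with STAT3Y640F, HPCLSK with empty vector and HPCLSK with STAT3Y640F. The labels name the empty vector dsRed (empty vector), give the strain 129SV for the HPC7 libraries and C57BL/6N for HPCLSK, and describe the vectors as retroviral. Both lines grew in IMDM with stem cell factor and had no further treatment, and HPCLSK was kept on agarose-coated plates. No label names a deletion of the cells' own Stat3 gene, and the series text calls the 3 libraries of a group technical replicates. Every error and p-value below therefore measures the spread between libraries, which may be technical, and not between separate transductions. Line, strain, plate coating and sequencing lane cannot be told apart, because all HPC7 libraries came from one flow cell lane and all HPCLSK libraries from another, per the file headers. Each change within a line was measured within one lane.

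STAT3 is carried to the nucleus after cytokine receptors such as the gp130 family activate Janus kinases. There it binds sites of the form TTCNNNGAA and switches on targets that include its own inhibitor Socs3. In blood progenitors, STAT3 is known for driving granulocyte and acute-phase genes downstream of G-CSF and IL-6 type cytokines, and mutations in its SH2 domain that activate it occur in lymphoid cancers. Type I interferon genes are classically driven by other members of the STAT family.

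Libraries held 23127740 to 38556669 counts in HPC7 and 13263597 to 22154763 in HPCLSK, so 3 counts in 1 library correspond to 0.0778 to 0.226 counts per 1000000 counts, the unit called CPM below. Mitochondrially encoded genes took 1.74 to 3.19% of the counts. Libraries of a group differed beyond sampling noise, as their chi-square statistic, divided by its degrees of freedom, lay between 2.49 and 27.04. In both HPCLSK groups replicate 1 stood apart from the other two, and results that rest on these 2 libraries are given with and without them. Of 9 stem and progenitor identity markers, none was at 0 in any group. Lhx2, a LIM-homeobox gene, differed most between the lines among these, with 8.92 ± 1.26 CPM in HPC7 and 1292 ± 75.7 in HPCLSK with empty vector (SD, n = 3). Counts per gene would not separate RNA of the cell's own Lhx2 gene from RNA of an introduced copy. The Lhx2 level is therefore not a measure of cell identity. The summed level of the 9 markers, Lhx2 included, differed with STAT3Y640F. As a ratio of medians to empty vector it was 1.03 in HPC7 and 0.625 in HPCLSK.

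Promoters of 3 genes are shown first because the STAT3 response of these genes is described below and because each holds a STAT site. Socs3 and Cish encode feedback inhibitors of cytokine signalling, and Aldoc encodes an aldolase of glycolysis. The windows come from RefSeq on build GRCm38.p6 and run from 250 bases before to 50 bases after the start that its table gives. All 3 windows lie inside the gene spans of the count files' annotation, which are 117966079 to 117970047 for Socs3, 78322968 to 78327781 for Aldoc and 107296026 to 107302784 for Cish, so that annotation has starts further upstream. Socs3 lies at chr11:117969317-117969616 on the minus strand, Aldoc at chr11:78323948-78324247 on the plus strand and Cish at chr9:107296409-107296708 on the plus strand. Capitals mark matches to TTCNNNGAA, which reads the same on both strands.
Socs3: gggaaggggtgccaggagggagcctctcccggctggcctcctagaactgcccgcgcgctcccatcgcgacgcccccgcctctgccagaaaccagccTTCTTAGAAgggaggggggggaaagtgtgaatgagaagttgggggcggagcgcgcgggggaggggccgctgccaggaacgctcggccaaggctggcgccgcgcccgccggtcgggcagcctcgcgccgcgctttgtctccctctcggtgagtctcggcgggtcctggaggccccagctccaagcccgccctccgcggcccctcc
Aldoc: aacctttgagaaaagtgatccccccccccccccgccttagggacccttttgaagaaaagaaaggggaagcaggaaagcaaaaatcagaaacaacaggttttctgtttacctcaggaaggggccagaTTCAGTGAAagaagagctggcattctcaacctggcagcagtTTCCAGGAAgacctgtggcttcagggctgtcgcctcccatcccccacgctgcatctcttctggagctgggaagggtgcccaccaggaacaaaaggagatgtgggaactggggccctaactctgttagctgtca
Cish: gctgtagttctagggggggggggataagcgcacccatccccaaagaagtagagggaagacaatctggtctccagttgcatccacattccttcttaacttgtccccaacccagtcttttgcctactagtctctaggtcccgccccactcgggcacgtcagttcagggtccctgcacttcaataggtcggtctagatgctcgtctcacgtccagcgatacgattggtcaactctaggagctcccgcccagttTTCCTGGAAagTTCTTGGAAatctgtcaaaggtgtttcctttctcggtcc
Socs3 had 1 match, while Aldoc and Cish had 2 each. Aldoc had 2 windows in the table, and both of its matches lay in the one shown. Of the 25 genes described in detail below, 17 had a window in the table and these 3 had a match. The motif stood in 8.3% of all 32851 windows of the table, in 8.38% of the 9987 tested genes with a window, in 9.99% of 791 genes with a called positive line difference and in 8.66% of 704 with a called negative one. These shares describe the letters in the windows and were not tested.

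More genes passed the test in HPCLSK than in HPC7, and most passed in only 1 of the lines. Calls needed an absolute log2 value of at least 1 together with a Benjamini-Hochberg adjusted p below 0.05 in edgeR's quasi-likelihood test, with the adjustment made over all 13891 genes. Of these, 2082 had a called line difference (15.0%), 1075 of them positive (7.74%) and 1007 negative (7.25%). Within HPCLSK, 2288 genes were called (16.5%), 1330 up (9.57%) and 958 down (6.90%). Within HPC7, 1086 were called (7.82%), 544 up (3.92%) and 542 down (3.90%). The median size of the log2 change over all tested genes was 0.34 in HPCLSK and 0.26 in HPC7. Both lines called 401 genes, which are 17.5% of the HPCLSK calls and 36.9% of the HPC7 calls. In 163 of these the directions were opposite, up in HPCLSK and down in HPC7 for 100 and the reverse for 63. Of the other 238, 136 rose and 102 fell in both lines. The responses correlated weakly across the 13891 genes, with Pearson r = 0.06 and Spearman rho = 0.11, a description over genes that share the same 12 libraries.

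**Figure D1:**
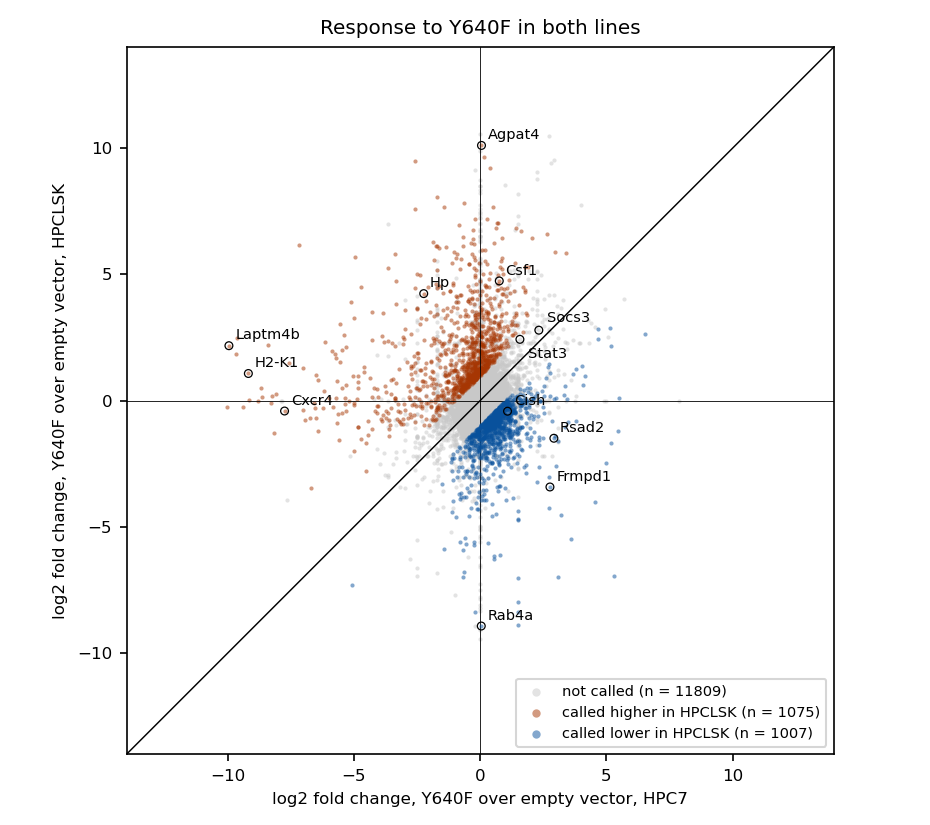
Log2 change from empty vector to STAT3Y640F in HPC7 (x axis) against HPCLSK (y axis), 1 point per gene for 13891 genes, with the diagonal where both lines moved equally. The 1075 genes with a called positive line difference lie above the diagonal and the 1007 with a negative one below it, and points far out along an axis include genes at 0 counts in one group, whose place depends on the prior count of the fit.

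Most called line differences belonged to genes that were themselves called in only 1 line. Among the 1075 positive ones, 579 genes were called in HPCLSK alone, 192 in HPC7 alone, 100 in both in opposite directions, 47 in both in one direction and 157 in neither. Among the 1007 negative ones, the counts were 440, 163, 63, 23 and 318. A gene called in 1 line alone can have moved in the other by less than the minimum. Csf1, called in HPCLSK alone, had a log2 change of 0.75 ± 0.25 in HPC7. The 9 library-to-library changes of one line lay wholly above those of the other for 984 of the 1075 genes and wholly below for 922 of the 1007. That separation was common in these data, since 48.5% of all tested genes had it, 25.6% with HPCLSK above and 22.9% with HPCLSK below. Calls were also made among genes expressed in both lines: 10400 tested genes reached 1 CPM in at least 1 group of each line, and 700 of these were called positive and 686 negative.

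Stat3 RNA was raised in both lines, and more in HPCLSK. It stood at 223, 236 and 216 CPM in HPC7 with empty vector and at 693, 654 and 660 with STAT3Y640F. In HPCLSK it stood at 365, 341 and 358 CPM with empty vector and at 1860, 1895 and 1949 with STAT3Y640F. The groups did not overlap in either line. The log2 change was 1.57 ± 0.05 in HPC7 (SE, adjusted p = 6.8e-14) and 2.42 ± 0.05 in HPCLSK (adjusted p = 1.5e-16), and the line difference was 0.85 ± 0.07 (adjusted p = 1.9e-08), under the minimum of 1 for a call. Counts of Stat3 hold RNA from the vector and from the cell's own gene (chromosome 11, 100885098 to 100939540). The larger dose of Stat3 RNA and the line cannot be told apart in any result below.

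Feedback and survival targets showed 3 patterns. Socs3, which blocks gp130 signalling, rose in both lines from different levels. Its libraries read 3.44, 3.34 and 2.74 CPM in HPC7 with empty vector and 16.3, 14.9 and 15.9 with STAT3Y640F, against 34.5, 28.5 and 22.7 and then 182, 185 and 220 in HPCLSK. The log2 changes were 2.32 ± 0.15 (adjusted p = 6.5e-10) and 2.79 ± 0.11 (adjusted p = 7.5e-13), with a line difference of 0.46 ± 0.20 that did not pass (adjusted p = 0.057). Every Socs3 library of HPCLSK was above every one of HPC7, but the sizes of the changes overlapped between the lines. Without the 2 HPCLSK libraries that stood apart, the line difference was 0.64 with an adjusted p of 0.0053, still under the minimum.

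Bcl3, a nuclear member of the I-kappa-B family, also rose in both lines. It went from 5.40, 6.58 and 5.10 CPM to 14.8, 12 and 12.8 in HPC7, and from 17.2, 21.9 and 21.6 to 92.8, 86.5 and 83.3 in HPCLSK. The line difference of 0.89 ± 0.17 (adjusted p = 2.0e-04) missed the minimum of 1. Pim1, a survival kinase, went from 103, 113 and 104 CPM to 280, 247 and 263 in HPC7, and from 285, 237 and 233 to 386, 487 and 535 in HPCLSK. Its line difference was small and negative, −0.40 ± 0.13 (adjusted p = 0.016), and was −0.19 (adjusted p = 0.060) without the 2 HPCLSK libraries that stood apart.

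Cish, a feedback inhibitor classically induced by STAT5, moved in opposite directions in the lines, although the fall in HPCLSK was not called. It read 4.13, 5 and 4.37 CPM with empty vector and 8.45, 10.1 and 9.90 with STAT3Y640F in HPC7. The HPCLSK libraries read 4.83, 5.04 and 4.80 CPM and then 3.51, 4.25 and 3.28. The start was alike and the direction was not, as all 3 HPC7 libraries with STAT3Y640F lay above and all 3 HPCLSK libraries below their controls. The line difference was −1.5 ± 0.17 (adjusted p = 8.7e-07).

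**Figure D2:**
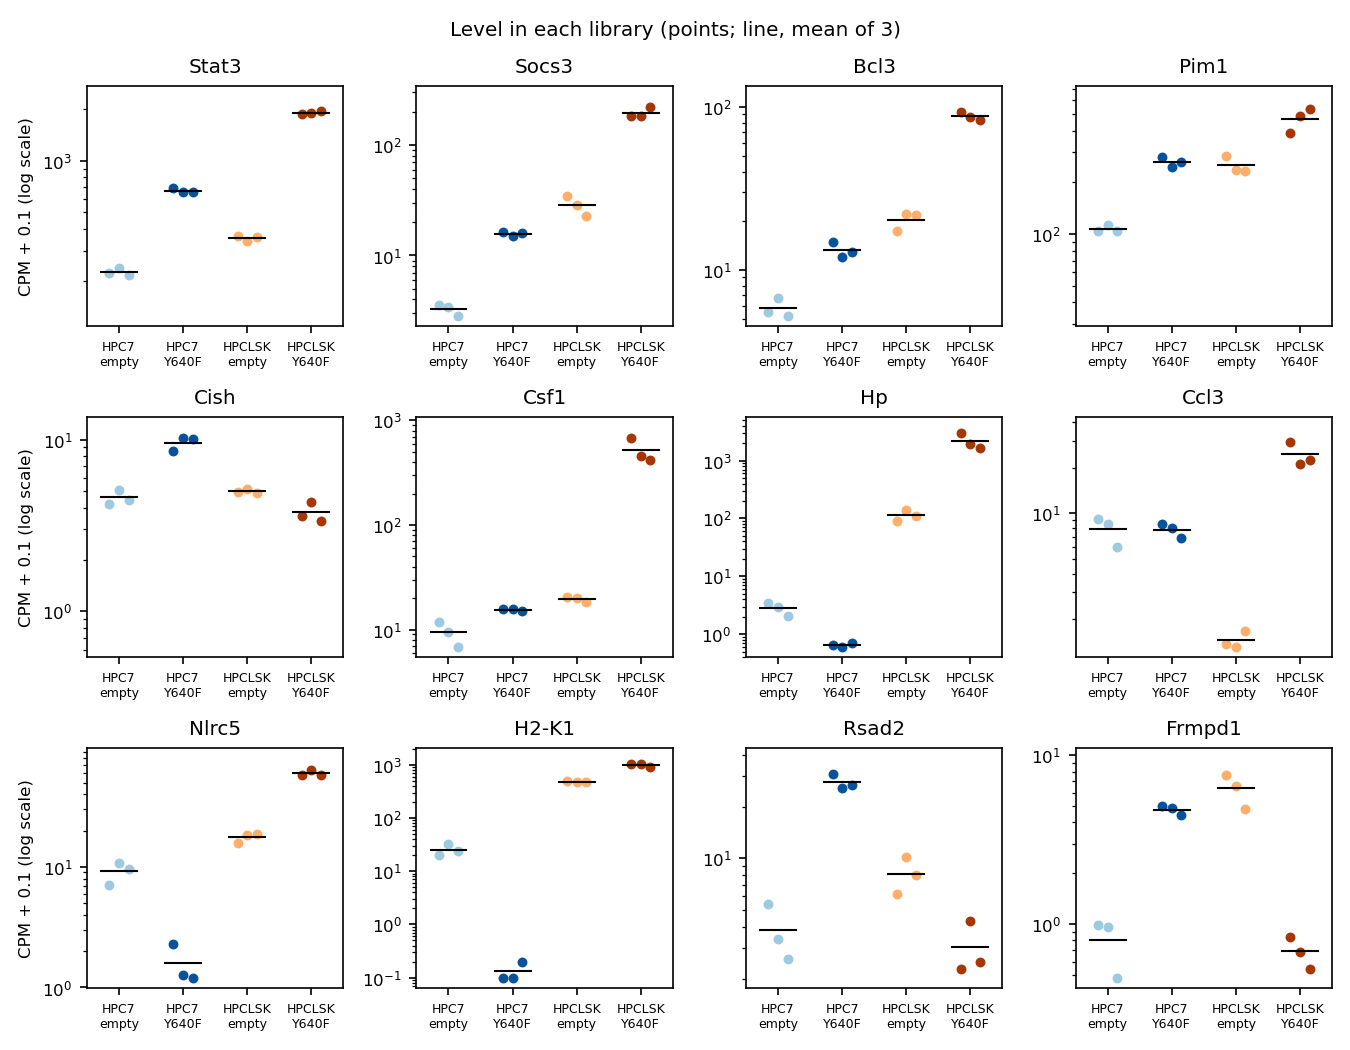
Level of 12 genes in each of the 12 libraries as CPM plus 0.1 on log axes, with points for libraries and lines for the mean of 3. Stat3, Socs3, Bcl3 and Pim1 are higher with STAT3Y640F in both lines, while Cish, H2-K1, Nlrc5, Rsad2 and Frmpd1 move in opposite directions between HPC7 and HPCLSK.

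Over the wider list of STAT3 and cytokine-response targets, 37 of 38 genes were tested. The line difference was called positive for 12 and negative for 6, with a median of 0.87 beside 0.02 over all tested genes. HPCLSK called 21 of them up and 3 down, and HPC7 called 7 up and 1 down. The share of the list with a called line difference was 48.6%, beside 15.0% of all tested genes. Il6st, which encodes the shared receptor chain gp130, gave the largest positive value of the list. It stood at 5.17, 5.43 and 4.57 CPM and then 8.22, 6.58 and 7.18 in HPC7, and at 4.16, 5.13 and 3.99 and then 86.5, 72.2 and 67.7 in HPCLSK, a line difference of 3.53 ± 0.22 (adjusted p = 4.3e-10). Il4ra, the interleukin-4 receptor chain, followed the same order with 2.28 ± 0.12. The negative members were the D-type cyclin gene Ccnd2 (−2.96 ± 0.15), the feedback inhibitor genes Socs2 and Cish, the kinase gene Pim2 (−1.73 ± 0.13), and Bcl2 and Bcl2l1. Pim2 went from 43.3, 46.1 and 41.0 CPM to 147, 128 and 134 in HPC7, while its HPCLSK libraries ran from 11.5 to 16.4 CPM over both groups.

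Survival genes of the BCL2 family gave values in both directions. Bcl2l1, which encodes BCL-XL, went from a mean of 159 to 317 CPM in HPC7 and from 64.4 to 58.5 in HPCLSK, a line difference of −1.13 ± 0.06 (adjusted p = 9.4e-11). Bcl2 itself stood at 47.2 and 50.2 CPM in HPC7 and fell from 101 to 34.1 in HPCLSK (−1.65 ± 0.12). Mcl1, another pro-survival member, stood at 209 and 210 CPM in HPC7 and rose from 536 to 1145 in HPCLSK (1.09 ± 0.11). Of 24 tested BCL2 family and apoptosis genes, 2 were called positive and 6 negative (33.3%, beside 15.0% of all tested genes), with a median of 0.03. Without HPCLSK STAT3Y640F replicate 1, 0 were positive and Mcl1 gave 0.96. Mcl1 also missed the minimum with library totals alone (0.94) and centred on its chromosome (0.98). Bcl2l1 lies on chromosome 2, whose genes as a whole stood higher with STAT3Y640F in HPC7, and its value was −0.72, not called, when centred on the chromosome's median.

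Kinases and STAT factors themselves seldom reached the minimum size for a call. Among 24 JAK-STAT pathway components, 2 had a called positive line difference and 0 a negative one (8.33%, beside 15.0% of all tested genes). The median was 0.09. At an adjusted p under 0.05 with no minimum size, 10 were positive and 7 negative, beside 48.6% of all genes called in either direction by that rule. The called genes were Ptpn6, which encodes the phosphatase SHP-1 (1.65 ± 0.09), and Stat4 (1.31 ± 0.12), which fell in HPC7 (−1.77 ± 0.09) and was not called in HPCLSK (−0.46 ± 0.08). Stat4 lies on chromosome 1, whose genes as a whole stood lower with STAT3Y640F in HPC7 (median −0.35). The median line difference of that chromosome was 0.33, so part of the Stat4 value may belong to the chromosome.

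Receptors for cytokines and growth factors differed in both directions. Of 35 tested, 13 were called positive and 5 negative (51.4%, beside 15.0% of all tested genes), with a median of 0.43. Il1r2, a decoy receptor for interleukin-1, stood at 4.59, 4.23 and 4.17 and then 3.08, 3.65 and 2.93 CPM in HPC7, and at 1.26, 1.74 and 1.68 and then 60.1, 66.0 and 76.9 in HPCLSK (line difference 5.84 ± 0.26, adjusted p = 5.6e-12). The chemokine receptor Ccr1 (4.43 ± 0.21), the macrophage colony-stimulating factor receptor Csf1r (3.23 ± 0.59) and the signalling interleukin-1 receptor Il1r1 (4.79 ± 0.35) also rose in HPCLSK and were not called in HPC7. Csf1r rested on unequal libraries, 1157 CPM in HPCLSK STAT3Y640F replicate 1 and 608 and 586 in the others. The stem cell factor receptor Kit, by contrast, fell from 829, 690 and 711 to 224, 275 and 278 CPM in HPCLSK and stood at 1234 to 1317 and then 1520 to 1610 CPM in HPC7, a line difference of −1.82 ± 0.10 (adjusted p = 1.1e-10).

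A pair of receptors was lost in HPC7 and kept in HPCLSK. Cxcr4, the receptor that holds progenitors in the marrow niche, read 8.18, 3.25 and 4.34 CPM in HPC7 with empty vector and 0.0655, 0 and 0 with STAT3Y640F. The 437 counts against 2 give a 272-fold lower level, with a 95% exact binomial counting interval of 74.8 to 2251. The HPCLSK libraries read 80.5, 105 and 95.4 CPM and then 69.0, 71.3 and 71.0. Il10ra, the interleukin-10 receptor, likewise went from 265 counts to 3 in HPC7, 110-fold lower (37.2 to 536), and stood at 77.7 ± 9.73 and 63.0 ± 10.2 CPM in HPCLSK. Both line differences were called (adjusted p = 5.5e-08 and 5.8e-08). Intervals of this kind cover counting error only.

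For receptors absent from one line the line difference could not be measured. Osmr, the oncostatin M receptor, was at 0 counts in all 6 HPC7 libraries and in all 3 HPCLSK libraries with empty vector, and stood at 3.91, 1.70 and 1.17 CPM in HPCLSK with STAT3Y640F, at least 37.8-fold higher against 3 counts over the group. Lifr, the leukaemia inhibitory factor receptor, was also at 0 in HPC7 and read 2.09, 1.70 and 1.76 CPM in HPCLSK with STAT3Y640F, where the empty vector libraries held 0, 0.0446 and 0.0578.

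Interferon-stimulated genes responded more in HPC7. Of 39 tested type I genes, 16 had a called negative line difference and 1, Ifi27l2a, a positive one, and the median was −0.96, or −0.85 with genes at 0 counts placed at their bound. The called share was 43.6%, beside 15.0% of all tested genes. HPC7 called 22 up and 0 down, while HPCLSK called 11 up and 2 down. Rsad2, which encodes the antiviral enzyme viperin, read 5.33, 3.29 and 2.51 CPM and then 30.7, 25.6 and 26.8 in HPC7. HPCLSK libraries held 6.10, 10.1 and 7.92 CPM and then 2.16, 4.25 and 2.40. It rose in HPC7 (2.92 ± 0.22) and fell in HPCLSK (−1.49 ± 0.26), with a line difference of −4.41 ± 0.34 (adjusted p = 6.1e-09) and no overlap of groups within either line. Rtp4, an interferon-induced regulator, held 2 counts in HPC7 with empty vector and 137 with STAT3Y640F, 55.1-fold higher (15.0 to 459), and stood at 7.33 ± 2.85 and 8.01 ± 0.91 CPM in HPCLSK (adjusted p of the line difference = 1.6e-04).

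Of 9 members that rose in both lines, 5 had a called negative line difference and 0 a positive one. Over all tested genes the shares were 7.25% and 7.74%. The 9 were picked by the same fitted changes whose difference is counted. The oligoadenylate synthetase gene Oas3 went from 1.24, 0.641 and 0.670 to 42.2, 23.2 and 27.8 CPM in HPC7 and from 5.13, 9.41 and 8.38 to 36.3, 33.8 and 34.8 in HPCLSK, a line difference of −3.04 ± 0.38 (adjusted p = 2.3e-06). Its levels with STAT3Y640F overlapped between the lines, while those with empty vector did not. Isg15, an interferon-induced ubiquitin-like modifier, gave −1.28 ± 0.31, and Usp18, its protease, gave −1.56 ± 0.24 and fell in HPCLSK (−1.09). Related Oas genes can share reads, so single members are uncertain. Stat2 and Irf9, factors that drive this programme, had line differences of −0.46 and −0.96 that were not called.

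Among antigen presentation genes, 3 of 4 tested class I heavy chains had a called positive line difference, and 3 of 5 tested class II genes, those of H2-DM included, a called negative one. Of these, H2-Q7 and H2-Ab1 held at most 5 counts in either HPC7 group. H2-K1, a classical class I heavy chain (chromosome 17, 33996017 to 34000333), read 20.1, 31.8 and 24.4 CPM in HPC7 with empty vector and 0, 0 and 0.10 with STAT3Y640F. HPCLSK libraries held 488, 470 and 467 CPM and then 1028, 1045 and 920. All 3 HPC7 libraries with STAT3Y640F were at or near 0, and no groups overlapped. The line difference was 10.25 ± 0.35 (adjusted p = 2.8e-13). HPC7 STAT3Y640F replicate 3 holds all 4 counts of its group, so without it the group is at 0 and no fold is given. H2-D1, a second class I heavy chain, followed in direction with 141 and 73.3 CPM in HPC7 and 328 and 907 in HPCLSK (2.41 ± 0.13). Class I genes are near copies of each other, and reads of 50 bases may be split between them.

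Nlrc5, the transactivator of class I genes, moved in the same way. It read 7.03, 10.7 and 9.47 and then 2.19, 1.17 and 1.10 CPM in HPC7, against 15.8, 18.5 and 18.5 and then 57.8, 63.5 and 57.6 in HPCLSK, a line difference of 4.39 ± 0.24 (adjusted p = 5.7e-11). The class II loading gene H2-DMa went the other way, up in HPC7 (1.18) and down in HPCLSK (−1.5), with −2.68 ± 0.18. Of the 26 tested genes of this list, 6 were positive and 3 negative (34.6%, beside 15.0% of all tested genes). The median was −0.13, unlike the values of these class I members.

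Granulocyte genes gave the largest median of any list. Of 27 tested, 15 had a called positive line difference and 0 a negative one (55.6%, beside 15.0% of all tested genes). The median was 2.47. HPCLSK called 15 up and 3 down, and HPC7 called 0 up and 8 down. Hp, the acute-phase protein haptoglobin, read 3.32, 2.82 and 1.98 and then 0.557, 0.508 and 0.60 CPM in HPC7. Those of HPCLSK stood at 91.2, 142 and 109 CPM and then 2961, 1899 and 1617, with a line difference of 6.47 ± 0.82 (adjusted p = 2.9e-06). Hp was low in HPC7 and fell there, while all 3 HPCLSK libraries with STAT3Y640F lay far above their controls.

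Other granulocyte genes were mostly low in HPC7. S100a8, an alarmin of neutrophils, stood at 203 CPM in HPCLSK with empty vector and 4632 with STAT3Y640F, while HPC7 held 0.391 and 0.0109 CPM. Cebpe, a factor of late granulocyte maturation, went from 0.691 to 0.170 CPM in HPC7 and from 6.89 to 32.1 in HPCLSK (4.15 ± 0.61). Cebpa, the factor of early granulocyte commitment, fell from 5.35 to 0.806 CPM in HPC7 and stood at 125 and 111 CPM in HPCLSK (2.53 ± 0.34). Mpo, the primary granule enzyme, was positive too (1.13 ± 0.34), with 464 and 125 CPM in HPC7 and 7923 and 4677 in HPCLSK, levels that fell in HPC7 and were not called in HPCLSK. The collagenase gene Mmp8 was at 0 in all HPC7 libraries and gave no measurable line difference.

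**Figure D3:**
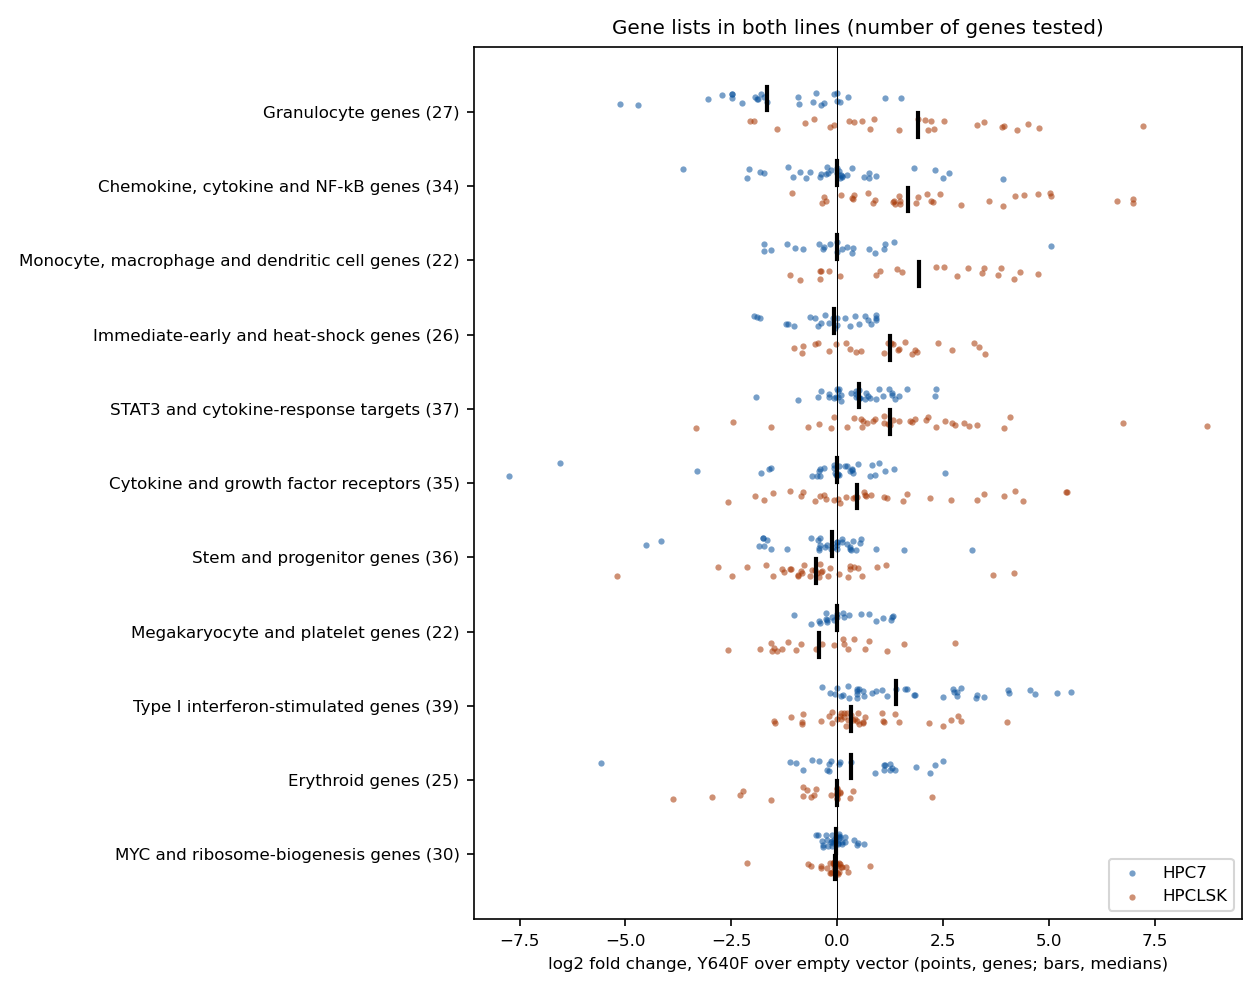
Log2 change from empty vector to STAT3Y640F of each tested gene of 11 lists, in HPC7 (blue, upper row) and HPCLSK (orange, lower row), with medians as black bars. Granulocyte genes have medians of −1.65 in HPC7 and 1.90 in HPCLSK, interferon-stimulated genes 1.38 and 0.32, and MYC and ribosome-biogenesis genes lie near 0 in both.

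Monocyte, macrophage and dendritic cell genes leaned the same way, with 11 of 22 positive, 1 negative and a median of 1.46. The called share was 54.5%, beside 15.0% of all tested genes. Without genes under 1 CPM in either line, the positive count was 6. Lyz2, the lysozyme of myeloid cells, stood at 10.2 and 8.03 CPM in HPC7 and rose from 712 to 6041 in HPCLSK (3.43 ± 0.28, adjusted p = 1.4e-08). Csf1, the macrophage growth factor, read 11.8, 9.28 and 6.73 and then 15.7, 15.7 and 15.0 CPM in HPC7. Those of HPCLSK stood at 20.4, 19.7 and 18.2 CPM and then 685, 453 and 414, with a line difference of 3.98 ± 0.34 (adjusted p = 2.6e-08). The negative member was the chemokine receptor gene Ccr2 (−1.07 ± 0.15), which rose in HPC7 and was not called in HPCLSK, and no member was negative without HPC7 empty vector replicate 1.

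Among chemokine, cytokine and NF-kB genes, 19 of 34 were positive and 1 negative (58.8%, beside 15.0% of all tested genes), with a median of 1.91. HPCLSK called 21 up and 1 down, and HPC7 called 4 in each direction. Ccl3, an inflammatory chemokine, read 9.11, 8.47 and 5.86 and then 8.38, 7.86 and 6.83 CPM in HPC7, against 1.26, 1.2 and 1.56 and then 29.7, 21.3 and 22.6 in HPCLSK (4.20 ± 0.32, adjusted p = 5.8e-09). Its HPC7 groups overlapped and its HPCLSK groups were far apart. Tnf (3.14 ± 0.21), the inhibitor gene Nfkbia (2.14 ± 0.25) and the NF-kB subunit genes Relb (2.21 ± 0.38) and Nfkb2 (1.36 ± 0.23) were positive too. Ccl5, a T-cell chemokine also induced by interferon, was the negative one (−2.76 ± 0.57), with a rise in HPC7 (2.50).

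Immediate-early genes had 11 of 26 positive and 2 negative (50%, beside 15.0% of all tested genes), with a median of 0.98. Egr3, a factor induced by growth signals, read 6.49, 4.70 and 4.54 and then 1.08, 1.67 and 1.65 CPM in HPC7. HPCLSK levels were 2.97, 0.178 and 0.173 CPM and then 13.5, 7.12 and 7.78, a line difference of 5.16 ± 0.66 (adjusted p = 3.2e-06). Replicate 1 was the high library in both HPCLSK groups, and the line difference was 7.17 without both. Fos (2.21 ± 0.30) and Jun (2.27 ± 0.25), the AP-1 subunit genes, were positive, while Dusp6 (−1.95 ± 0.13) and Dusp2 (−1.48 ± 0.13), phosphatases that end MAP kinase signals, were the negative members.

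Stem and progenitor genes divided evenly, 6 positive and 6 negative of 36 (33.3%, beside 15.0% of all tested genes), with a median of −0.22. The negative ones were Kit, the factor genes Lmo2, Tal1, Gata2 and Mycn, and the GATA cofactor gene Zfpm1. Lmo2 rose in HPC7, from 74.9 to 223 CPM, and stood at 306 and 262 CPM in HPCLSK (−1.80 ± 0.14). Hoxb4, a homeobox gene that expands stem cells, read 6.45, 7.40 and 7.20 and then 7.76, 8.52 and 8.58 CPM in HPC7. HPCLSK levels were 0.297, 0.223 and 0.347 CPM and then 4.45, 6.27 and 4.80, a line difference of 3.92 ± 0.28 (adjusted p = 2.6e-09). Each HPCLSK library still lay below every HPC7 library. Of the 36 genes, HPCLSK called 3 up and 10 down, and HPC7 called 2 up and 7 down. Among the 9 identity markers, the line difference was called positive for 2 and negative for 4 (66.7%).

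Among 25 erythroid genes, 4 were negative and 1 positive (20%, beside 15.0% of all tested genes), with a median of −1.12. Of these, 9 were at or under 3 counts in both HPCLSK groups, where no response can be read, and the median over the other 16 was −0.27. Gata1, the erythroid and megakaryocyte master factor, rose in HPC7 from 10.1 to 26.1 CPM and stood at 2.79 and 1.42 CPM in HPCLSK (−2.18 ± 0.50). Among 22 megakaryocyte and platelet genes, 8 were negative and 1 positive (40.9%), with a median of −0.57. Without the 2 HPCLSK libraries that stood apart 5 were negative, and the positive call was lost when any of 7 single libraries was left out. F2r, a thrombin receptor, fell in HPCLSK from 370 to 61.4 CPM (−2.87 ± 0.13, adjusted p = 8.5e-12). Among 17 mast cell, basophil and eosinophil genes, 3 were negative and 1 positive (23.5%), with a median of −0.25. Cpa3, the mast cell carboxypeptidase, read 4092, 3059 and 3123 and then 590, 726 and 847 CPM in HPCLSK and 324 to 455 CPM over all HPC7 libraries (−2.47 ± 0.18, adjusted p = 2.6e-09).

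These lineage lists are also markers of other cell types that a progenitor culture can hold. The summed level of 27 granulocyte genes ran from 530 to 864 CPM in HPC7 with empty vector, 273 to 295 with STAT3Y640F, 9680 to 14800 in HPCLSK with empty vector and 22900 to 24700 with STAT3Y640F. For 22 monocyte lineage genes the ranges were 667 to 724, 524 to 540, 2260 to 2560 and 8660 to 12400 CPM. For 17 mast cell lineage genes they were 580 to 735, 762 to 780, 7040 to 9000 and 2700 to 3330 CPM, and for 22 megakaryocyte genes 2140 to 2330, 2010 to 2050, 3580 to 4510 and 2580 to 2660. Over 25 erythroid genes they were 3390 to 3420, 3060 to 3150, 1550 to 1640 and 1450 to 1480 CPM. In HPC7, 4 of 28 granulocyte genes listed in the files were at 0 with empty vector and 6 with STAT3Y640F, against 1 (Ly6g) and 0 in HPCLSK. Of 27 monocyte lineage genes, 5 and 7 were at 0 in HPC7 and 2 in both HPCLSK groups, the dendritic cell genes Siglech and Xcr1. Of 33 erythroid genes, 0 were at 0 in HPC7, against 14 and 12 in HPCLSK, adult globin genes among them. As the ratio of median sums with STAT3Y640F to those with empty vector, the granulocyte sum stood at 0.43 in HPC7 and 1.9 in HPCLSK. The monocyte sum stood at 0.765 and 3.69, the mast cell sum at 1.24 and 0.426 and the megakaryocyte sum at 0.895 and 0.708. For the 36 stem and progenitor genes the ratios were 0.976 and 0.63. A sum rests on its most abundant members, and single genes did not all follow it. In HPCLSK, 5 mast cell lineage genes were called up and 5 down, with a median log2 change of 0.55. HPC7 called 2 of these up and 1 down. Of the erythroid genes, HPC7 called 11 up and 2 down, while the sum was lower. In bulk RNA, a shift in the share of cells of a type and a shift in RNA per cell cannot be told apart, and the part of lineage composition in the line differences was not tested.

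**Figure D4:**
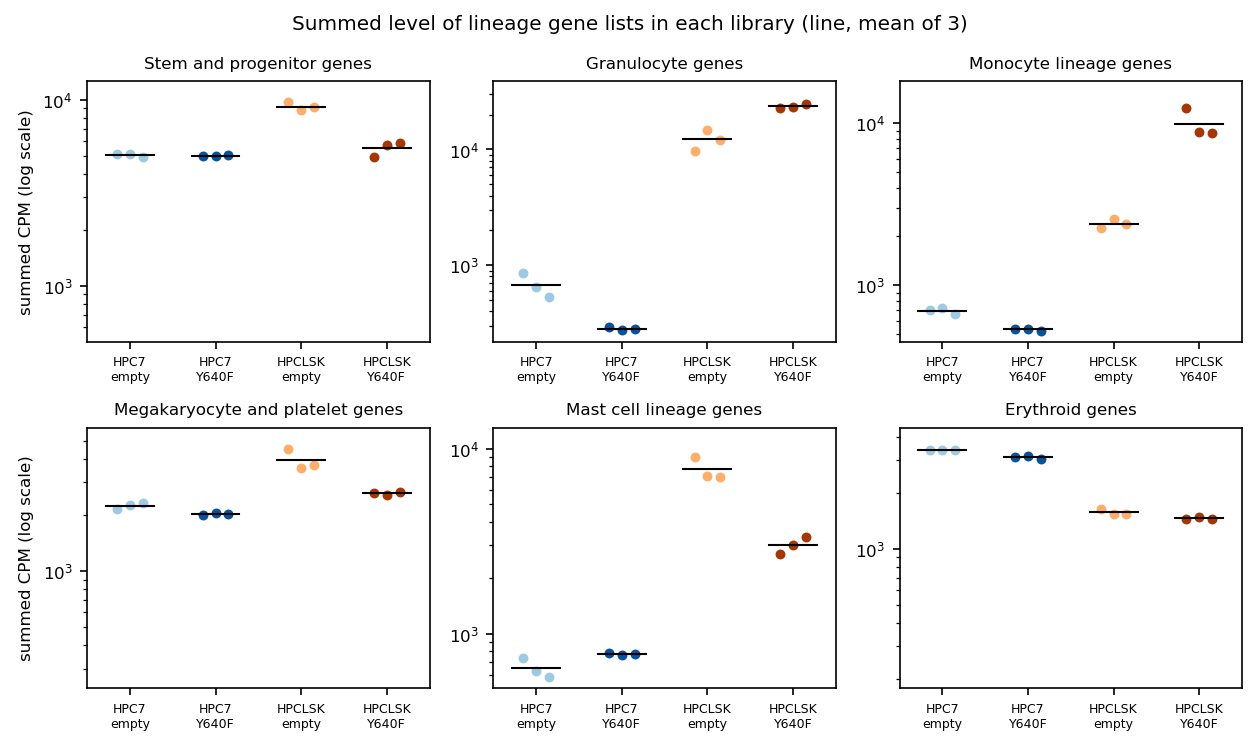
Summed CPM of 6 lineage lists in each library on log axes, with points for libraries and lines for the mean of 3. Granulocyte and monocyte lineage sums are highest in HPCLSK with STAT3Y640F, where the stem and mast cell lineage sums are below those of HPCLSK with empty vector. The granulocyte sum is lower with STAT3Y640F in HPC7 and higher in HPCLSK.

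Some defining genes of lymphocytes and stroma were at 0, and others of the same lists were not. B-lymphoid lists held 5 to 7 genes at 0 by group, T and natural killer lists 10 to 13 and stromal lists 6 to 11. Of 21 B-lymphoid genes 10 were tested, 0 were positive and 2 negative (20%, beside 15.0% of all tested genes), with a median of 0.80. The summed level was 397 to 529 CPM over all groups, and the defining genes Pax5 and Ms4a1 were at 0 in all 4 groups. Of 28 T and natural killer genes 9 were tested, 1 was positive and 2 negative (33.3%) with a median of −1.51 (−1.05 with genes at 0 counts at their bound), and Cd3e and Cd8a were at 0 throughout. Their sum ran from 46.3 to 50.4 and 63.1 to 69.5 CPM in HPC7 and from 268 to 288 and 114 to 130 in HPCLSK, where Nkg7, a cytotoxic granule gene, fell from 247 to 25.0 CPM. Of 16 stromal and endothelial genes 7 were tested, 2 positive and 2 negative (57.1%) with a median of −1.24, and Dcn and Lum were at 0 in all groups. The stromal sum ran from 451 to 573 and 478 to 505 CPM in HPC7 and from 793 to 893 and 1110 to 1410 in HPCLSK, most of it vimentin, whose gene Vim is not specific to stroma.

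Among metabolic and growth lists, the share of genes called was 24.2% for glycolysis and hypoxia, 10.3% for cholesterol synthesis, 12.8% for the cell cycle and 3.33% for MYC and ribosome biogenesis, beside 15.0% of all tested genes. Of 33 glycolysis and hypoxia genes 6 were positive and 2 negative, with a median of 0.50, and the negative count was 4 without HPC7 empty vector replicate 1. Aldoc read 1.39, 2.05 and 1.02 and then 0.196, 0.179 and 0.15 CPM in HPC7, against 21.9, 14.1 and 13.6 and then 73.9, 77.5 and 110 in HPCLSK (5.44 ± 0.50, adjusted p = 6.4e-08). Its direction was opposite in the lines, with no overlap in either. The Aldoc window shown above holds 2 matches to the STAT motif, and a link between them and these values was not tested. Cholesterol synthesis had 3 of 29 positive and 0 negative, with 7 positive without the 2 HPCLSK libraries that stood apart. Cell-cycle genes had 4 of 39 positive and 1 negative with a median of 0.38, among them E2f2, a factor of S-phase entry (2.46 ± 0.15). MYC and ribosome-biogenesis genes had 0 positive and 1 negative of 30, with a median of −0.01.

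Stress lists were called at shares near the 15.0% of all genes, 12.9% for amino-acid stress and 13% for p53 targets. Of 31 amino-acid stress and unfolded-protein genes, 2 were positive and 2 negative, the latter being Ddit3 (−1.31 ± 0.11) and Trib3 (−2.52 ± 0.61), genes of the CHOP branch that rose in HPC7, Trib3 in HPCLSK also. Of 23 p53 targets, 1 was positive and 2 negative. None of 9 mitochondrially encoded genes was called, and 1 of 4 sex-linked genes, Uty, was negative (−2.53 ± 0.43).

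Some of the largest line differences among genes expressed in both lines were losses or gains close to all or none. Laptm4b, a lysosomal membrane protein gene, read 3.86, 7.06 and 4.60 CPM in HPC7 with empty vector and 0 in all 3 libraries with STAT3Y640F, at least 175-fold lower against 3 counts over the group. In HPCLSK it read 7.66, 5.57 and 4.97 CPM and then 26.0, 28.2 and 26.8. Mier2, a histone deacetylase complex gene, went from 1.66, 5.30 and 5.71 CPM to 0 in all 3 HPC7 libraries, at least 150-fold lower, and from 3.90 ± 1.33 to 13.5 ± 0.285 in HPCLSK. Ppic, a cyclophilin gene, went from 952 counts to 1 in HPC7, 1184-fold lower (212 to 46818), and from 3.02 ± 1.28 to 16 ± 0.954 CPM in HPCLSK. All 3 rose in HPCLSK, where no library was at 0.

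Agpat4, an acyltransferase of phospholipid synthesis, was the reverse case. It was at 0 in all 3 HPCLSK libraries with empty vector and at 8.56, 4.05 and 4.70 CPM with STAT3Y640F, at least 99.9-fold higher, and stayed between 21.1 and 24.5 CPM in the 6 HPC7 libraries. Rab4a, which encodes a small GTPase of endosome recycling, read 3.72, 2.23 and 1.91 CPM in HPCLSK with empty vector and 0 in all 3 libraries with STAT3Y640F, at least 42.2-fold lower, against 38.5 to 47.1 CPM in HPC7. Tmem218, a transmembrane protein gene, was likewise lost in HPCLSK, at least 28.5-fold lower, and read 4.70 to 5.94 CPM in HPC7. Dpf3, a chromatin reader gene, went from 93 counts to 1 in HPCLSK, 88.5-fold lower (15.5 to 3531), and stood at 4.92 ± 1.05 and 7.08 ± 0.24 CPM in HPC7.

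Frmpd1, a scaffold protein gene, showed an exchange between the lines. It read 0.888, 0.855 and 0.379 CPM in HPC7 with empty vector and 4.88, 4.75 and 4.30 with STAT3Y640F. The HPCLSK libraries held 7.59, 6.51 and 4.68 CPM with empty vector and 0.741, 0.588 and 0.441 with STAT3Y640F. Neither line had overlapping groups. The gain in HPC7 (2.76 ± 0.26) and the loss in HPCLSK (−3.42 ± 0.31) gave a line difference of −6.18 ± 0.40 (adjusted p = 9.0e-10).

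Such near losses were counted over all tested genes, taking a group as near 0 at 3 counts or fewer and its partner at 1 CPM or more. In HPC7, 22 genes were near 0 with STAT3Y640F and 4 with empty vector. In HPCLSK, 27 were near 0 with STAT3Y640F and 57 with empty vector. HPCLSK libraries were shallower, so 3 counts stand for a higher CPM there, and the numbers of the lines are not at a like threshold. Of the 22 lost in HPC7, 19 had a called positive line difference, among them Cxcr4 and Il10ra, the BMP signal transducer gene Smad1 (43.8 and 49.5 CPM in HPCLSK), the focal adhesion kinase gene Ptk2 and the interleukin-1 signal inhibitor gene Irak3. Of the 57 gained in HPCLSK, 22 had a called positive line difference. Over all tested genes 7.74% were called positive, but these genes were picked for a large change in 1 line, which sets the direction. Some held too few HPC7 counts for a response to be read, such as Nos2 with 1 and 0 and Ghr with 2 and 2. Among all called line differences, 17 positive and 8 negative ones had HPC7 at or under 3 counts in both groups.

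Whole chromosomes differed in HPC7. The median line difference was 0.33 over 867 tested genes of chromosome 1, −0.41 over 1094 of chromosome 2, −0.30 over 926 of chromosome 5 and −0.13 over 472 of chromosome 19. On the 16 other chromosomes apart from Y it lay between 0.01 and 0.11, and over the 8 tested genes of Y it was −1.03, with medians of 0.17 in HPC7 and −0.60 in HPCLSK. The shift came with the HPC7 change, whose medians were −0.35, 0.44, 0.29 and 0.18 on chromosomes 1, 2, 5 and 19, while HPCLSK medians stayed between −0.08 and 0.03 on all autosomes and X. On chromosome 2, 57 genes were called positive and 146 negative, on chromosome 5 44 and 115, and on chromosome 1 109 and 34. Over all 13891 tested genes, 7.74% were called positive and 7.25% negative. On these chromosomes the counts thus lean to the direction of the median line difference. With each gene's value centred on the median of its chromosome, 1024 genes were called positive and 968 negative in all. The cause of the shifts was not tested. Unless stated, the values of single genes above are not centred on their chromosome.

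**Figure D5:**
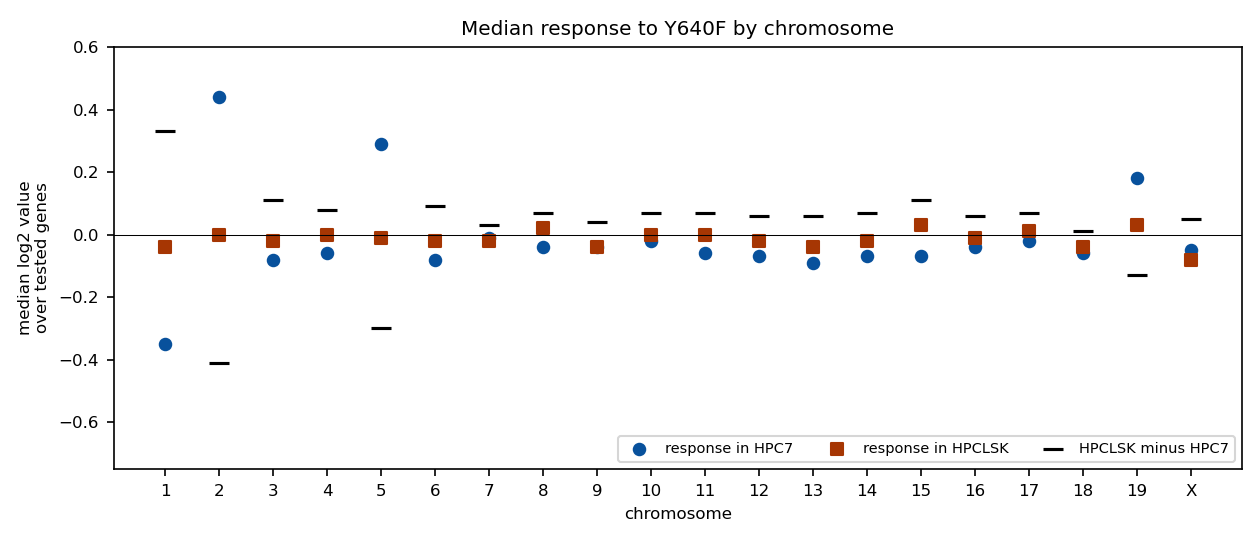
Median log2 value over the tested genes of each chromosome for the response in HPC7 (circles), the response in HPCLSK (squares) and the line difference (bars). HPC7 medians leave 0 on chromosomes 1, 2, 5 and 19 by −0.35, 0.44, 0.29 and 0.18, and HPCLSK medians lie between −0.08 and 0.03 on the autosomes and X. Chromosome Y is not drawn.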

How the data were processed

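Messenger RNA of 18 libraries was deposited as raw counts of reads per gene, which the authors made from STAR alignments and the GENCODE M13 annotation using featureCounts 1.5.1 (strand option 2), per the file headers. Trimmomatic and the builds GRCm38 and mm10 are named in the submitters' processing notes. Sequencing was single-end at 50 bases. Series text and sample protocol name different library kits. The chromatin samples were not analysed here.

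Gene IDs gave a symbol for 50376 of 50686 genes. One model with a mean for each of 6 groups was fitted over all 18 libraries with edgeR 4.0.16 under R 4.3.3 (TMM, filterByExpr, quasi-likelihood test, Benjamini-Hochberg adjustment). CPM are counts per 1000000 of the TMM-adjusted library total. Errors are standard errors for log2 values and standard deviations for CPM. Where a group held 0 counts, a fold is a lower bound against 3 counts over the group. With 1 to 3 counts it is a ratio with a 95% counting interval.

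The members and gene lists were chosen with earlier results of these data known. The 25 genes described in detail are Stat3, Socs3, Pim1, Bcl3 and Cish and, among called genes with at least 5 CPM in the highest group, at least 1 CPM in each line and responses that did not overlap, the 5 largest and 5 smallest line differences, the 3 largest in each direction among opposite responses, and up to 2 genes per list, at most 12. Genes that this rule also picked are not all reported here. Any other gene is an example picked with its values in view. The fit was tested on simulated data. Alternatives were DESeq2 1.42.0, other scalings and filters, the 12 libraries alone, other call rules, chromosome centring, a replicate block, and leaving out libraries.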

Additional observations from a re-analysis of the deposited data

Results flagged for a closer look

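For 24 of the 25 genes described in detail, the change from empty vector to STAT3Y640F differed between the lines by the test of the difference itself (edgeR quasi-likelihood, adjusted p under 0.05). Most of them were named for a large difference, so their number is set by how they were chosen. Values are log2 line differences, HPCLSK minus HPC7. Among those with a group at 0 counts, the values are bounds against 3 counts: 9.63 for Laptm4b, 9.07 for Mier2, 6.59 for Agpat4, −4.63 for Tmem218 and −5.44 for Rab4a. With 1 to 3 counts in a group, the counting ratios give 12.67 for Ppic, 7.67 for Cxcr4, 6.47 for Il10ra, −5.69 for Rtp4 and −7.00 for Dpf3. Fitted values above 0 were 10.25 for H2-K1, 6.47 for Hp, 5.44 for Aldoc, 5.16 for Egr3, 4.39 for Nlrc5, 4.20 for Ccl3, 3.98 for Csf1, 3.92 for Hoxb4, 0.89 for Bcl3 and 0.85 for Stat3. Fitted values below 0 were −0.40 for Pim1, −1.5 for Cish, −4.41 for Rsad2 and −6.18 for Frmpd1. Stat3, Bcl3 and Pim1 changed in the same direction in both lines, and their line differences are in size only. For Pim1 the adjusted p was 0.055 without HPCLSK empty vector replicate 1.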

How the results depend on the processing

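None of the 2082 called line differences was called in the opposite direction under any alternative tried. They were kept at 95.4% with DESeq2 (1182 positive, 988 negative), at 99.4% with relative log expression factors and at 93.4% with library totals alone, which moved the median line difference of all genes from 0.02 to −0.11 and gave 937 and 1261. The share kept was 81.3% with a test against a 1.5-fold minimum, 85.4% without both HPCLSK libraries that stood apart and 64.8% with the 1 CPM filter, which left 1378 of them tested. With at least 1 CPM in 3 libraries of each line, 661 were positive and 738 negative, against 1075 and 1007, HPCLSK called 622 up and 468 down, and HPC7 292 and 256, since fewer genes were tested. By adjusted p alone, 3577 line differences were positive and 3178 negative, HPCLSK called 4086 up and 3922 down, and HPC7 3246 and 3496. Leaving out each library in turn gave 1011 to 1090 positive and 954 to 1056 negative calls, and leaving out both HPCLSK libraries that stood apart gave 1000 and 941. Replicate numbers did not pair the libraries (correlations of −0.15 to 0.07 over 18 pairs, and not every library correlated best with its own number), and with the replicate block 1045 genes were positive and 993 negative. Of the 25 genes described in detail, only Bcl3 and Pim1 (by adjusted p alone) and Stat3 (also with a test against a 1.5-fold minimum) changed call. The adjusted p of Socs3 (0.057) went below 0.05 with DESeq2 (0.035), no filter (0.012) and without HPC7 empty vector 3 (0.041), HPCLSK empty vector 1 (0.0084) or HPCLSK STAT3Y640F 1 (0.045). That of Pim1 (0.016) rose above 0.05 without HPCLSK empty vector 1 (0.055) and without both libraries that stood apart (0.060). Where 1 library holds all counts of a group near 0 (Cxcr4, Ppic, Dpf3 and Rtp4) or of a group at 4 counts (H2-K1), leaving it out puts the group at 0, and no fold is given. Depth limits genes under 0.226 CPM in the shallowest library.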
